A study of Mus musculus with 8 samples.

Results

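The imprinted growth genes H19, Igf2, Dlk1, Meg3, Peg3, Cdkn1c, Grb10, Mest, Peg10 and Plagl1, 10 in all, were followed in bulk RNA-seq of synchronized mouse testes with or without SpdyA in the germ cells. The members were chosen by gene symbol, with earlier results of these data known. Each symbol matched 1 row of the 54532 genes in the table, 8 of them protein-coding and 2, H19 and Meg3, annotated as lincRNA. All 10 had a mean above 0.1 FPKM (fragments on a gene relative to its length and to the size of the library) over the 8 libraries and were tested among the 25931 genes that passed this filter. The study asked what the loss of SpdyA does to pachytene spermatocytes and their sex chromosomes, and RNA-seq compared the transcriptomes of whole testes. The groups were Sync-Spdya fl/fl mice (control, 4 libraries) and Sync-Spdya cKO mice (Spdya fl/fl;Ddx4-CreERT2, 4 libraries), with 1 mouse per library. Mice of both groups carried the floxed Spdya alleles and had their germ cells synchronized by an inhibitor of retinoic acid synthesis and then retinoic acid (RA). Both groups also received tamoxifen, on days 7.5 and 8.5 after RA according to the labels, and testes were taken at day 11.5. The study's methods place the injections slightly earlier. CreERT2 under the Ddx4 promoter is active in germ cells, where it removes exon 2 of Spdya, so the somatic cells of both groups kept the gene.

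An imprinted gene is read mainly from the copy inherited from 1 parent, because DNA methylation laid down in the egg or sperm marks the copies differently. Igf2, Dlk1, Peg3, Mest, Peg10 and Plagl1 are read from the paternal copy, and H19, Meg3, Cdkn1c and, in most tissues, Grb10 from the maternal copy. In the male germ line the inherited marks are erased in the fetus and the paternal pattern is set before birth, ahead of meiosis. Many of these genes are high in fetal tissues, fall after birth and persist in stromal and endocrine cells, and in the testis they are mostly genes of the somatic cells. FPKM values sum both parental copies, so they give the level of a gene and not its imprint.

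The recovered fragments on genes ranged from 13978342 to 17867570 in the control libraries and from 15494873 to 19583091 in the cKO libraries. Control replicate 1 stood apart with 0.464% of its fragments on mitochondrial genes, where the other 7 libraries had 2.20% to 3.74%. Spdya had 20.8, 21.0, 23.8 and 19.7 FPKM in the controls and 30.5, 22.2, 26.1 and 17.7 FPKM in the cKO libraries (log2 fold change 0.15, limma adjusted p = 0.808). This total over the whole gene does not check the removal of 1 exon.

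No member was called different between the groups. In limma's test on log2(FPKM + 0.1), with calls made at an adjusted p (Benjamini-Hochberg) under 0.05 together with a log2 fold change over 1 in either direction, 0 of the 10 members were called, beside 0.0309% of all genes tested. The adjusted p of the members ran from 0.514 to 0.852. At an unadjusted p below 0.05, 1 member passed, Mest, beside 9.3% of all genes. The log2 fold change (cKO minus control, also in the values below) was above 0 in 9 members, beside 49.5% of all genes, and below 0 in Igf2. Its median was 0.32 over the members and 0.00 over all genes. In 0 members did the FPKM of the 2 groups fail to overlap, beside 5.56% of all genes. Without control replicate 4, which was the highest control in 6 members, the groups did not overlap in 5 members (H19, Meg3, Peg3, Mest and Plagl1), beside 11.8% of all genes, and without cKO replicate 1 in 2 (Mest and Plagl1), beside 11.7%. Without control replicate 1, 0 members passed an unadjusted p of 0.05.

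**Figure D1:**
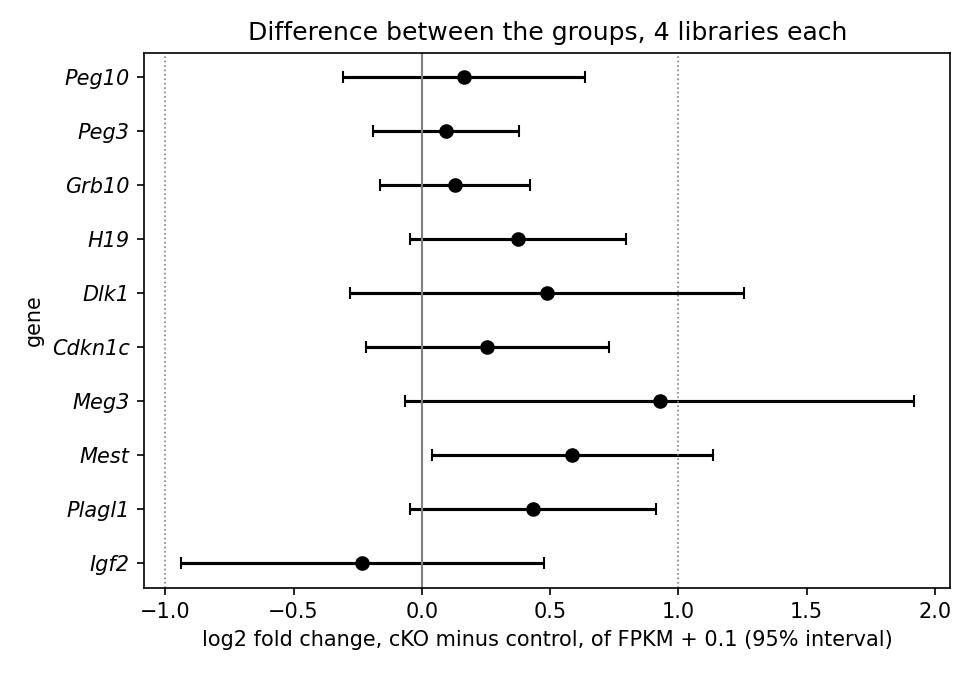
Log2 fold change of FPKM + 0.1, cKO minus control, of each member (points) with its 95% confidence interval (bars), genes from the highest to the lowest control mean; dotted lines mark a log2 change of 1 in either direction. The interval of Mest, 0.04 to 1.14, lies above 0, and the intervals of the other 9 genes include 0.

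Igf2 encodes insulin-like growth factor 2, a fetal growth factor, and lies on chromosome 7 of GRCm38 (142650766 to 142666816, minus strand). It had the lowest mean of the members, with 0.760, 0.347, 0.648 and 0.309 FPKM in the controls and 0.406, 0.492, 0.321 and 0.391 FPKM in the cKO libraries. The cKO libraries sat inside the range of the controls, in which replicates 1 and 3 were high. With 29 to 58 fragments per library, the log2 fold change was -0.23 (SE 0.31, limma adjusted p = 0.852). It was -0.05 without control replicate 1, -0.11 without control replicate 3, -0.15 without cKO replicate 3, -0.36 without control replicate 2 and -0.40 without control replicate 4. The antisense transcript Igf2os, with 16 to 38 fragments, overlaps the 5′ part of Igf2, 7124 bases of its span. The use of strand in counting is not given in the sources used here, so reads of the pair within this stretch cannot be told apart. Gm49394, named after its values were seen, is annotated as protein-coding on the same strand (142650769 to 142669942). It covers nearly all of the Igf2 span and had 0 to 3 fragments per library. How reads shared by Gm49394 and Igf2 were counted is not given either.

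H19 is a noncoding RNA from the neighbouring locus (chromosome 7, 142575529 to 142578143, minus strand), whose control region also sets which copy of Igf2 is read. The controls had 2.36, 2.65, 2.34 and 3.72 FPKM and the cKO libraries 2.91, 3.87, 4.22 and 3.35 FPKM. Controls 1 to 3 were below every cKO library, and replicate 4 lay inside the cKO range. The log2 fold change of 0.38 (SE 0.19) had an unadjusted p of 0.0743 and a limma adjusted p of 0.593. Leaving out cKO replicate 3 gave 0.30 and leaving out control replicate 4 gave 0.52, on the same scale.

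The log2 ratio of H19 to Igf2, 2 neighbours read from opposite parental copies, was 1.51, 2.62, 1.71 and 3.22 in the controls and 2.58, 2.74, 3.36 and 2.81 in the cKO libraries. In FPKM H19 was therefore the higher of the pair in each of the 8 libraries. The mean ratio was 2.27 ± 0.80 (SD, n = 4) in the controls and 2.87 ± 0.34 (SD, n = 4) in the cKO libraries. The difference of 0.61 had a two-sided p = 0.229 in an exact permutation test (0.4 after adjustment over 2 ratios), where the smallest p that 4 against 4 libraries allow is 0.0286. Leaving out control replicate 1 gave a difference of 0.36, and leaving out control replicate 4 gave 0.93.

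Dlk1 encodes a transmembrane and secreted relative of the Notch ligands that is known from fetal Leydig cells and other precursor cells (chromosome 12, 109452823 to 109463336, plus strand). It had 2.85, 3.65, 1.24 and 2.82 FPKM in the controls and 2.43, 3.31, 3.42 and 5.39 FPKM in the cKO libraries. Control replicate 3 was the lowest value and cKO replicate 4 the highest, with the other 6 libraries mixed between them. Dlk1 had a log2 fold change of 0.49 (SE 0.34, limma adjusted p = 0.705), which was 0.18 without control replicate 3 and 0.28 without cKO replicate 4, and at most 0.67 when any other library was left out.

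Meg3 is a noncoding RNA from the maternal copy of the same domain (chromosome 12, 109541001 to 109571726, plus strand). The controls had 0.451, 0.951, 0.608 and 2.25 FPKM and the cKO libraries 1.34, 2.05, 1.40 and 2.62 FPKM. Controls 1 to 3 lay below each cKO library, and control replicate 4 lay above 3 of them. The log2 fold change of 0.93 was the largest of the members in size (SE 0.44, 95% interval -0.06 to 1.92, unadjusted p = 0.0635, limma adjusted p = 0.569). It was 0.64 without control replicate 1, 0.75 without cKO replicate 4 and 1.34 without control replicate 4, on the same scale, and in none of these was the gene called. Meg3 also had the widest spread, since its highest control was 4.99 times its lowest. Its SD within groups on the log2 scale was larger than that of 87.6% of the 16249 genes with a mean in the range of the members.

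The log2 ratio of Meg3 to Dlk1 was -2.42, -1.83, -0.92 and -0.31 in the controls and -0.82, -0.67, -1.23 and -1.01 in the cKO libraries. In FPKM, which depend on the annotated gene length, Dlk1 was the higher of the pair in all 8 libraries. The cKO ratios sat within the wider range of the controls. The means were -1.37 ± 0.94 (SD, n = 4) and -0.93 ± 0.25 (SD, n = 4), a difference of 0.44 with p = 0.4 in the exact permutation test, two-sided (0.4 adjusted). This difference was 0.09 without control replicate 1, 0.29 without control replicate 2 and 0.79 without control replicate 4. Further along the domain, the noncoding RNA Rian had 0.843 ± 0.290 FPKM (SD, n = 4) in the controls and 0.955 ± 0.230 FPKM (SD, n = 4) in the cKO libraries, and Mirg had 0.114 ± 0.0186 and 0.108 ± 0.0710 FPKM (both SD, n = 4). Begain, a protein-coding gene on the other side of Dlk1, had 4.65 ± 1.93 and 5.12 ± 0.784 FPKM (both SD, n = 4), above Dlk1 and Meg3. These genes were named after their values were seen.

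The stretches just upstream of the start sites of Meg3, Dlk1 and Mest are shown because these windows carry CG dinucleotides, the sites of DNA methylation, and because these genes had the largest log2 fold changes. Each is 150 bases 5′ to 3′ in the direction of the gene, ending at the base before the RefSeq start site, with CG in capitals, from GRCm38.p6. Where a gene had more than 1 listed start site, the window with the most CG was taken.
Meg3, plus strand, chr12:109540846-109540995: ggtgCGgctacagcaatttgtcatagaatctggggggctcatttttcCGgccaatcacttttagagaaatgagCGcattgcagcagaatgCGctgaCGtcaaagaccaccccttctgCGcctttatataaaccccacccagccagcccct
Dlk1, plus strand, chr12:109452673-109452822: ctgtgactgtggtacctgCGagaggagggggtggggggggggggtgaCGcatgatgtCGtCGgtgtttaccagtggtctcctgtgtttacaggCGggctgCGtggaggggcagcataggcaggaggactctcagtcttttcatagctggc
Mest, plus strand, chr6:30737900-30738049: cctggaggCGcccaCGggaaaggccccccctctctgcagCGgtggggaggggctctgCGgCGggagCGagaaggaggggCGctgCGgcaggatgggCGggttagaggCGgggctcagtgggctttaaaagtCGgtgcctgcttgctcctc
The Meg3 stretch held 6 CG, the Dlk1 stretch 6 and the Mest stretch 11. RefSeq start sites were listed for 7 of the 10 members, with 14 windows of 250 upstream bases, and H19, Cdkn1c and Peg10 were not among them. These windows held 0 to 40 CG, with 40 at a Grb10 start site, against a median of 6 over 32851 windows of the mouse table. The windows behind the stretches of Meg3 and Mest held 10 and 14 CG, and other start sites of these genes as few as 0 and 7. The letters TATAAA, on either strand, were found in 1 of the 14 windows, that of Meg3, where they begin 25 bases before the start site. Of all windows 12.4% held them. Methylation was not measured here.

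Grb10 encodes an adaptor that binds the insulin and insulin-like growth factor receptors and restrains growth (chromosome 11, 11930508 to 12038683, minus strand). It had 5.06, 4.49, 3.60 and 4.84 FPKM in the controls and 4.77, 5.31, 4.73 and 4.79 FPKM in the cKO libraries. Apart from control replicate 3 and cKO replicate 2, the libraries lay close together. For Grb10 the log2 fold change was 0.13 (SE 0.13, limma adjusted p = 0.795), with a 95% interval from -0.16 to 0.42, and it was 0.03 without control replicate 3.

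Cdkn1c encodes the cyclin-dependent kinase inhibitor p57, which holds cells out of the cycle (chromosome 7, 143458339 to 143461050, minus strand). The controls had 2.43, 2.22, 3.29 and 1.62 FPKM and the cKO libraries 2.40, 2.86, 2.76 and 3.18 FPKM. The controls held both the highest and the lowest value, and all cKO libraries lay between them. Cdkn1c had a log2 fold change of 0.26 (SE 0.21, limma adjusted p = 0.764), which fell to 0.09 when control replicate 4 was left out and reached 0.42 when control replicate 3 was. Control replicate 4, the highest control in 6 other members, was here the lowest.

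Peg3 encodes a large zinc finger protein (chromosome 7, 6703892 to 6730431, minus strand) and was the second highest member. It had 9.20, 7.65, 8.62 and 11.3 FPKM in the controls and 9.24, 9.82, 9.54 and 10.4 FPKM in the cKO libraries. The cKO values lay within the control range. With 1606 to 2478 fragments per library the gene was measured with little counting error, and its log2 fold change of 0.09 (SE 0.13) had a 95% interval from -0.19 to 0.38 (limma adjusted p = 0.852). Leaving out control replicate 2 gave 0.01, and leaving out control replicate 4 gave 0.20.

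Plagl1, also a zinc finger transcription factor and a regulator of other imprinted genes, lies on chromosome 10 (13060504 to 13131694, plus strand). The controls had 0.732, 0.649, 0.614 and 0.858 FPKM and the cKO libraries 0.811, 1.11, 0.880 and 1.22 FPKM. Only cKO replicate 1 fell below the highest control, replicate 4. Plagl1 had a log2 fold change of 0.43 (SE 0.21, unadjusted p = 0.0711, limma adjusted p = 0.587). With the libraries centred on the median of their autosomal genes, Plagl1 was the 1 member in which the groups did not overlap. The share of all genes without overlap was not computed after this centring.

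Mest encodes a membrane protein of the alpha/beta hydrolase family (chromosome 6, 30723547 to 30748465, plus strand). The controls had 0.580, 0.867, 1.02 and 1.25 FPKM and the cKO libraries 1.12, 1.52, 1.503 and 1.49 FPKM. All cKO libraries but 1 lay above every control, and cKO replicate 1 lay below control replicate 4. The log2 fold change of 0.59 (SE 0.24, 95% interval 0.04 to 1.14) had an unadjusted p of 0.0386 and a limma adjusted p of 0.514. The gene rested on 30 to 100 fragments per library, and Copg2 on the opposite strand, with 2838 to 4369 fragments, overlaps the last 912 bases of its span. With the use of strand not given, reads of the pair within these bases cannot be told apart. Copg2 had 47.8, 38.7, 42.2 and 35.8 FPKM in the controls and 44.0, 34.7, 38.8 and 33.9 FPKM in the cKO libraries, and its log2 fold change was -0.12 (limma adjusted p = 0.807).

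Peg10, a gene derived from a retrotransposon and required in the placenta, lies on chromosome 6 (4747306 to 4760517, plus strand) and was the highest member, above 90.0% of all genes tested. It had 16.0, 24.6, 19.8 and 32.2 FPKM in the controls and 20.1, 26.5, 26.1 and 28.5 FPKM in the cKO libraries. The controls spread over 2.01-fold and enclosed the cKO libraries. For Peg10 the log2 fold change was 0.16 (SE 0.21, limma adjusted p = 0.845). It was 0.00 without control replicate 1, the lowest library, 0.10 without control replicate 3 or cKO replicate 4, 0.27 without cKO replicate 1 and 0.34 without control replicate 4.

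**Figure D2:**
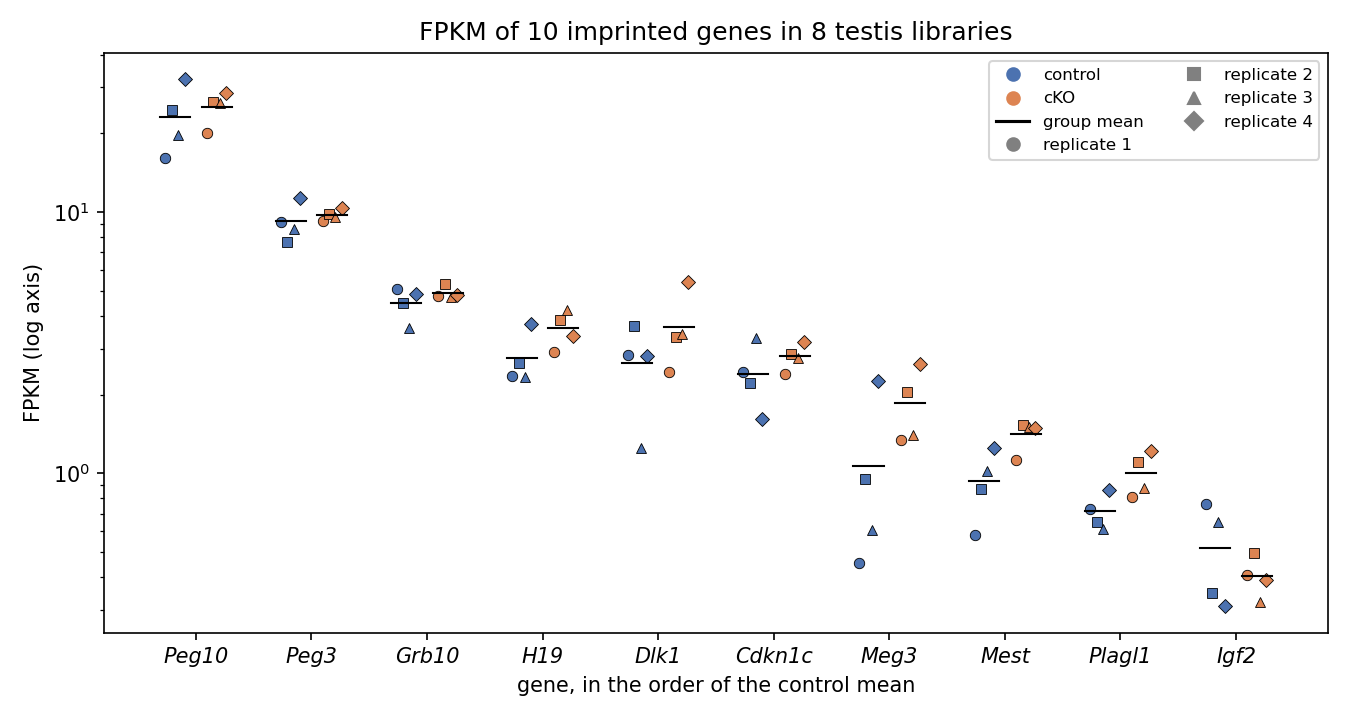
FPKM of the 10 members (log axis) in each of the 4 control and 4 cKO libraries, with 1 marker shape per replicate number and a line at each group mean; genes run from the highest to the lowest control mean. Peg10 lies at 16.0 to 32.2 FPKM and Igf2 at 0.309 to 0.760, and in each gene the points of the groups overlap.

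In the controls the order of the mean FPKM was Peg10, Peg3, Grb10, H19, Dlk1, Cdkn1c, Meg3, Mest, Plagl1 and Igf2. FPKM are divided by 1 annotated length per gene, which was 18089 bases for Meg3 and 2039 for Cdkn1c. The order therefore also depends on these lengths, and the lengths of the transcripts present were not determined. Peg10 was 2.52 times Peg3 and Peg3 2.05 times Grb10, and in these 2 steps the control ranges did not overlap. In the other 7 steps the ranges of neighbours overlapped. The order of H19 and Dlk1, with means of 2.77 and 2.64 FPKM, held in 2 of the 4 controls. Peg3 and Grb10 varied least within groups, with an SD on the log2 scale larger than 22.8% and 19.2% of genes in the members' range, and Dlk1, after Meg3, varied most, above 81.3%.

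Of the members, 4 host microRNA genes on their own strand, and these had rows of their own in the table. Mir675 (inside H19), Mir770 and Mir1906-1 (inside Meg3) had 0 fragments in all libraries, Mir335 (inside Mest) 0 to 1 and Mir483 (inside Igf2) 0 to 3. These nearly empty rows give no level of the mature microRNAs. Whether the level of a host gene above follows that of its mature microRNA was not tested. RefSeq lists 9 mature microRNAs within these 4 genes, with 9 different seeds (bases 2 to 8). The 5p sequences of 1 hairpin per host are shown 5′ to 3′ with the seed in capitals, so that the products of each host can be recognised in small RNA data.
mmu-miR-675-5p, in H19: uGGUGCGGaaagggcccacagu
mmu-miR-483-5p, in Igf2: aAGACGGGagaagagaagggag
mmu-miR-770-5p, in Meg3: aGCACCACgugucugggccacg
mmu-miR-335-5p, in Mest: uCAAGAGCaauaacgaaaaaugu

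Most pairs of members were positively related from mouse to mouse. Over the 8 libraries the Pearson correlation of log2(FPKM + 0.1) was above 0 in 31 of the 45 pairs, with a median of 0.45, and ran from -0.81 (Igf2 with Peg10) to 0.88 (Meg3 with Peg10). At an unadjusted p below 0.05 in exact permutation tests 11 pairs passed, and 0 pairs passed after adjustment over the 45 pairs. The same shares were not computed for pairs of other genes, so these counts are not particular to the members. The 45 pairs also reuse the same 10 genes and are not independent of each other. Within groups, on values centred on the group mean, 27 pairs were above 0 and the median was 0.36. cKO replicate 1 was the lowest of its group in 8 of the 10 members and cKO replicate 4 the highest in 6, and control replicate 4 was the highest control in 6.

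Meg3 and Peg10 had r = 0.88 (exact permutation p = 0.00407, adjusted 0.0975) and rho = 0.95 (p = 0.00114, adjusted 0.0513), with r = 0.65 without the 2 libraries farthest from the Meg3 median. H19 and Mest had r = 0.84 (exact permutation p = 0.0065, adjusted 0.0975) and rho = 0.88 (p = 0.00724, adjusted 0.0989), with r = 0.92 without the farthest 2. H19 and Igf2, neighbours in 1 domain, had r = -0.68 (exact permutation p = 0.0673, adjusted 0.202) and rho = -0.62 (p = 0.115, adjusted 0.287), and r = -0.50 without the farthest 2. Dlk1 and Meg3 had r = 0.59 (exact permutation p = 0.122, adjusted 0.274) and rho = 0.43 (p = 0.299, adjusted 0.539), and r = 0.02 without the farthest 2. Leaving out the farthest libraries also narrows the range of Dlk1, which by itself can lower r. On values centred on the group mean the r of Dlk1 and Meg3 was 0.45. None of these pairs passed the adjusted threshold.

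**Figure D3:**
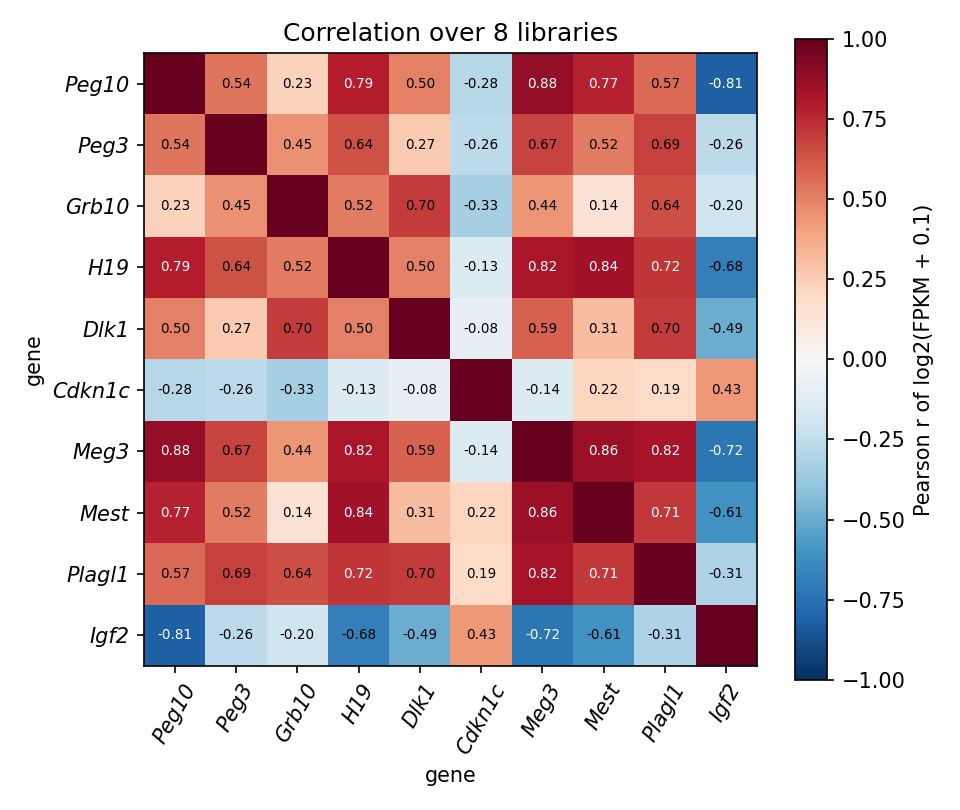
Pearson r of log2(FPKM + 0.1) over the 8 libraries for each pair of members, from blue (-1) to red (1), genes from the highest to the lowest control mean. All 14 negative values belong to pairs with Igf2 or Cdkn1c, and the other 8 genes are positively related to each other, up to 0.88 for Meg3 and Peg10. Many of these signs rest on few libraries. Without the 2 libraries farthest from the median of the first gene, Igf2 and Grb10 had r = 0.70 and Cdkn1c and Peg10 0.61. Dlk1 and Peg3 then had -0.43, while Igf2 and Peg10 stayed negative at -0.35.

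For the 3 highest members, the genes with the most similar profile over the 8 libraries were sought among 15512 genes with a mean FPKM above 1. Nearest to Peg10 were Zhx2 (r = 0.99), Pfkfb3 (r = 0.99) and Rpl36a (r = 0.99), and 257 genes had an r above 0.9. Zyg11b (r = 0.97), Cald1 (r = 0.96) and Mier1 (r = 0.96) were nearest to Peg3, for which 40 genes had an r above 0.9. Enpp2 (r = 0.98), Syn2 (r = 0.96) and Gm9515 (r = 0.96) were nearest to Grb10, with 25 genes above 0.9. None of the 9 is an imprinted gene of the lists used here, and with 8 libraries and so many genes such values describe these libraries only.

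Among 61 other imprinted genes found in the table, 49 were tested and 0 were called. At an unadjusted p below 0.05, 4 were higher and 0 lower in the cKO libraries, where 4.27% of all genes tested were higher and 5.03% lower. The median log2 fold change was 0.10. Sgce, the epsilon-sarcoglycan gene that lies back to back with Peg10 and is likewise read from the paternal copy, had 0.755, 1.03, 1.01 and 1.25 FPKM in the controls and 1.57, 1.57, 1.69 and 1.97 FPKM in the cKO libraries. All cKO libraries lay above all controls (log2 fold change 0.71, SE 0.19, limma adjusted p = 0.338), which was not so for Peg10. Qpct, encoding glutaminyl-peptide cyclotransferase, had 40.6 ± 6.70 FPKM (SD, n = 4) in the controls and 58.4 ± 5.21 FPKM (SD, n = 4) in the cKO libraries. Its groups again did not overlap (log2 fold change 0.53, limma adjusted p = 0.296). Of all genes tested 5.56% had groups without overlap. Sgce and Qpct were picked by their unadjusted p, so their lack of overlap is not a separate result. Dcn, encoding the matrix proteoglycan decorin, had 17.7 ± 9.82 and 28.9 ± 5.41 FPKM (both SD, n = 4; log2 fold change 0.86, limma adjusted p = 0.514).

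The insulin-like growth factor (IGF) axis carries the Igf2 signal. Igf1r, the receptor that signals, had a log2 fold change of 0.04 and Igf2r, the receptor that clears Igf2, one of -0.04 (limma adjusted p of 0.955 and 0.928), both named after their values were seen. Of 29 genes of the axis 25 were tested and 0 were called. At an unadjusted p below 0.05, 3 were higher and 0 lower in the cKO libraries (4.27% and 5.03% of all genes), with a median log2 fold change of 0.18. These were Htra1, a secreted protease, with 6.18 ± 1.53 against 9.73 ± 1.801 FPKM (control against cKO, SD, n = 4), and the IGF binding proteins Igfbp3, with 8.83 ± 3.43 against 14.9 ± 3.48 FPKM, and Igfbp6, with 38.6 ± 11.2 against 57.0 ± 9.36 FPKM (SD, n = 4). Their log2 fold changes were 0.66, 0.80 and 0.60, with limma adjusted p of 0.373, 0.418 and 0.446.

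The medians of the somatic cell marker lists lay above 0, as did that of the members. At an unadjusted p below 0.05, 4 of 8 Leydig cell markers, 2 of 7 fetal Leydig and stromal markers, 1 of 6 peritubular, 1 of 6 endothelial, 4 of 6 macrophage and 0 of 10 Sertoli cell markers were higher in the cKO libraries, and 0 of each were lower or called, beside the same 4.27% and 5.03% of all genes. Their median log2 fold changes were 0.44, 0.43, 0.28, 0.49, 0.60 and 0.15. The summed FPKM of the Leydig markers was 41.2 to 63.4 in the controls and 54.2 to 74.0 in the cKO libraries. That of the fetal Leydig and stromal markers was 54.0 to 140.5 and 73.9 to 128.7. The 140.5 belongs to control replicate 1 and came mostly from Col1a1 (80.1) and Col3a1 (45.9). Sertoli marker sums were 1027 to 1369 and 1365 to 1605, mostly from Clu, with 718 to 940 and 991 to 1188 FPKM. The peritubular sums were 45.6 to 76.6 and 75.4 to 105.4, and the endothelial sums 7.17 to 13.8 and 13.2 to 16.8. Macrophage marker sums did not overlap, at 14.3 to 25.5 in the controls and 27.4 to 34.6 in the cKO libraries. How often sums of other gene sets fail to overlap was not computed.

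Of 8 spermatocyte markers tested, 1 was higher and 2 lower at an unadjusted p below 0.05, with a median log2 fold change of -0.24. Their sums were 1106 to 1683 FPKM in the controls and 875 to 1373 FPKM in the cKO libraries. H2al2a, also on that list, was at 0 in all libraries and is not read as a spermatocyte marker here. Of 7 spermatogonia markers 0 were higher and 1 lower (median 0.08), with sums of 189 to 259 and 237 to 246 FPKM. Spermatid marker sums were 2.52 to 9.56 and 4.39 to 6.31 FPKM, mostly from Spaca1 (1.92 to 8.99 FPKM in the controls), with a median log2 fold change of -0.27 over 3 tested. Red blood cell markers had 1 of 5 higher (median 0.52; sums of 10.8 to 39.8 and 22.0 to 46.7 FPKM). In RNA of whole testes, fewer cells of a type and less RNA per cell cannot be told apart. The part of these cell types in the members' values was not tested.

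**Figure D4:**
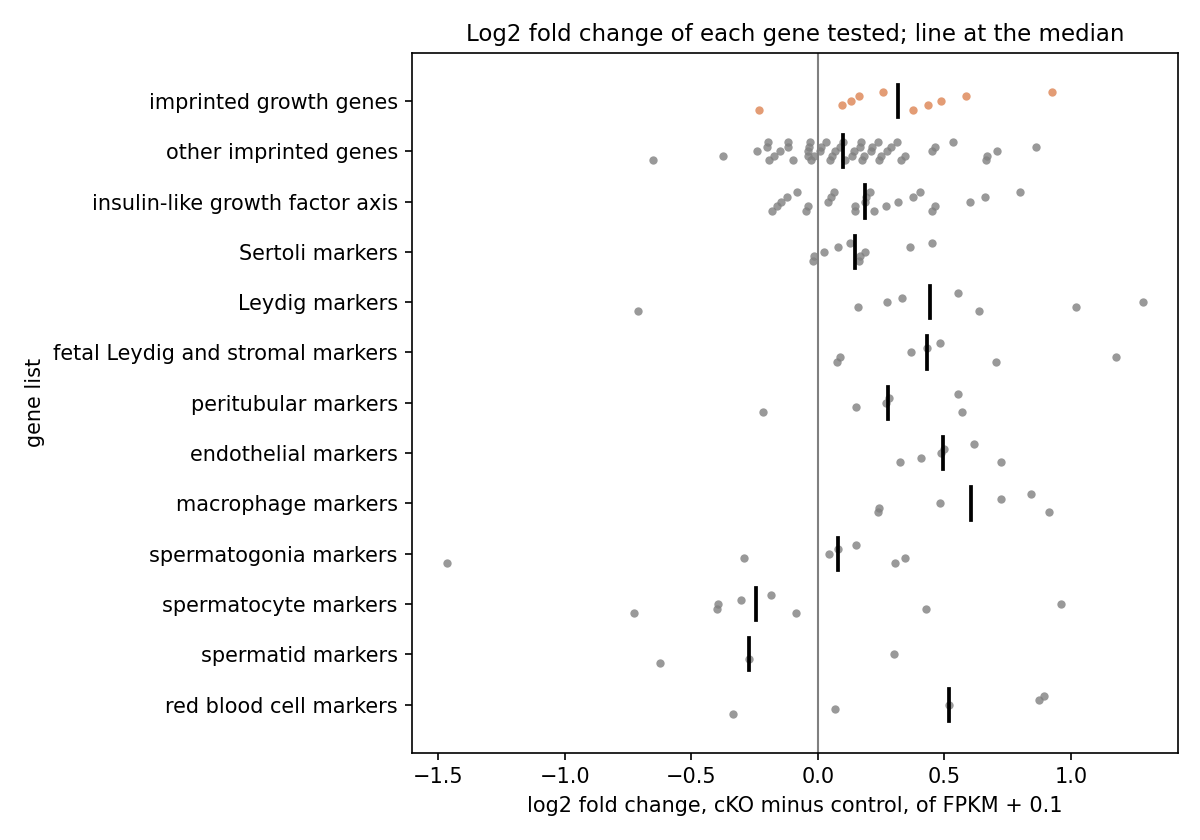
Log2 fold change of FPKM + 0.1, cKO minus control, with 1 point per gene tested, for the 10 members (orange) and the other lists (grey), and a line at each median. The members' median of 0.32 lies between that of the Sertoli markers, 0.15, and those of the Leydig and macrophage markers, 0.44 and 0.60, and the spermatocyte markers lie mostly below 0.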

How the data were processed

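Bulk RNA-seq of whole testes was analysed from 4 control mice (Sync-Spdya fl/fl) and 4 mice of the Sync-Spdya cKO group. The authors deposited FPKM values of 54532 genes, made by the sequencing company's software from paired-end reads, per library and as a table, with a gene length in bases. The 8 library files equalled the table. The build is GRCm38 per the labels; aligner, counting tool and use of strand are not given in the sources used here. The labels name a column kit for RNA, the methods Trizol. Per-library scaling by the authors is part of the FPKM values. Dividing by the value of 1 fragment gave whole fragments for 100% of the values checked, up to 200 fragments, within a tolerance of 0.02.

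Genes whose mean over the 8 libraries was above 0.1 FPKM were tested as log2(FPKM + 0.1), which understates fold changes of low genes, with limma 3.58.1 in R 4.3.3 (lmFit, eBayes with a mean trend), 4 against 4 without covariates, and p-values were adjusted over all 25931 genes. The procedure was tested on simulated fragments, with changes larger than those seen in the members. That test does not tell how often changes of the members' size would be called. Calls used the p and fold change thresholds of the study's methods. The study applied them with DESeq2 and not with limma, so the calls here are not those of the study. With its filter on protein-coding genes, 2 of 12141 genes were called here. Ratios and correlations were tested with exact permutation tests (scipy 1.17.1). Values after ± are SDs. Start sites and microRNAs were taken from RefSeq, GRCm38.p6, by symbol or position.

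The members and gene lists were chosen with earlier results of these data known. The genes named are the members, up to 3 genes per list with the largest log2 fold change in each direction at an unadjusted p below 0.05, and the 3 nearest profiles of the 3 highest members; others are said to be named after their values were seen. Alternatives were other pseudocounts, filters, scalings and models, and each library left out in turn.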

Additional observations from a re-analysis of the deposited data

Results flagged for a closer look

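In 24 groups of 4 libraries (the 10 members and the 2 ratios, in controls and cKO), 2 held a library whose gap to its nearest neighbour, over the range of the group, exceeded Dixon's 95% critical value. Chance gives about 1 in 20 groups. Mest in cKO replicate 1, at 1.12 FPKM, lay below the other cKO libraries, at 1.49 to 1.52 FPKM. Grb10 in cKO replicate 2, at 5.31 FPKM, lay above the others, at 4.73 to 4.79 FPKM.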

How the results depend on the processing

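Under 19 alternatives 0 members were called. None of the 183 log2 fold changes recomputed for members turned in sign, and the lowest adjusted p was 0.251. The number of members at an unadjusted p below 0.05, 1 as reported, was 0 with the study's filter on protein-coding genes (5 members tested), with a mean FPKM above 1 (8 tested) and after rescaling to TPM, 2 after centring, 2 without a trend in eBayes, 3 with voom on the recovered fragments, 4 with array weights, and 0 to 4 when single libraries were left out: 4 without control replicate 4, 2 without cKO replicate 1, and 0 without control replicate 1 or 2 or cKO replicate 2, 3 or 4. With a replicate block it was 2 (Meg3 and Mest, 10.8%), and 0 genes were called. Between libraries that share a number the correlation of deviations from the group mean was -0.01 to 0.17. Between libraries with different numbers it was -0.24 to 0.09. The controls were littermates by the study's methods, but the labels do not say whether a shared number marks a pair. Whether the replicate block is the right model is therefore not known. The number of members without overlap was 1 after centring and 0 to 5 without single libraries. Without single libraries the share over all genes was 7.12% to 11.8%, and after centring this share was not computed. For the 2 ratios 11 alternatives each were run (pseudocounts, the replicate block and each library left out), and in all of them the difference kept its direction and its p stayed above 0.05. Without single libraries it was 0.36 to 0.93 for H19 to Igf2 and 0.09 to 0.79 for Meg3 to Dlk1. Low fragment totals limit Igf2, Mest and Cdkn1c.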

Other observations

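Imprinted noncoding RNAs outside the members, named after their values were seen, were also without a call. Kcnq1ot1, which silences Cdkn1c and its neighbours on the paternal copy, had 0.572 ± 0.188 FPKM (SD, n = 4) in the controls and 0.472 ± 0.0581 FPKM (SD, n = 4) in the cKO libraries. Airn, which silences Igf2r on the paternal copy, had 0.270 ± 0.131 and 0.202 ± 0.0584 FPKM (both SD, n = 4). Peg13, from a brain-imprinted domain, had 1.88 ± 0.278 and 2.39 ± 0.348 FPKM (both SD, n = 4). Their limma adjusted p were 0.858, 0.863 and 0.603.

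Of the imprinted genes near Peg3, all named after their values were seen, Zim1 had a log2 fold change of 0.67, Zim2 one of -0.65 and Zfp264 one of -0.20 (limma adjusted p of 0.602, 0.582 and 0.703), with 6 to 20 fragments per library for Zim2. Usp29, at 0.0928 ± 0.0248 and 0.0990 ± 0.00900 FPKM (both SD, n = 4), was below the filter and not tested.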
